A study of Mus musculus with 6 samples.

Results

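Interferon response genes are the genes that cells switch on after an interferon binds its receptor, and 40 of them were described here over haematopoietic progenitors of the mouse fetal liver. They were chosen by name for their known induction by interferon, with earlier results of these data known. All probes of each gene were read on all arrays. Of the 40, 38 had at least 1 probe named here, 49 probes in all, out of 20660 genes with a named probe on the array. Mx1 and Mx2 had none and were not analysed here. All 38 were well above background on at least 1 array, and 34 on all 6.

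Type I interferons signal through a receptor whose kinases phosphorylate transcription factors such as Stat2. A complex that holds Stat2 and Irf9 binds the interferon-stimulated response element, a repeat of GAAA separated by a short spacer, in the promoters of the target genes. The targets include sensors of foreign RNA, enzymes that cut or edit RNA, GTPases that act on intracellular microbes, the ubiquitin-like protein Isg15, and transcription factors that carry the response further. Stem cells and progenitors are known to express part of this set at rest.

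The study asked which genes depend on Satb1, a protein that organises chromatin, in early lymphoid progenitors. The RNA was taken from freshly isolated fetal liver cells of E18.5 embryos of C57BL6/J mice, either Satb1-null or wild type littermates, with no treatment. Each genotype gave 3 sorted populations, all negative for lineage markers. Cells enriched for haematopoietic stem cells (HSC) were c-kitHi Sca-1+ Flt3-, those enriched for lymphoid-primed multipotent progenitors (LMPP) were c-kitHi Sca-1+ Flt3+, and those enriched for common lymphoid progenitors (CLP) were c-kitLo Sca-1Lo IL7Rα+. Each of the 6 groups was measured once, on a single-colour array, and a difference between a pair of arrays therefore lacks a replicate check. How many embryos were used for a sample, or whether they were pooled, is not in the labels.

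Of the sort markers, the Flt3 probe was brightest in LMPP and the Il7r probe in CLP in both genotypes. The probe of Ly6a, the gene of Sca-1, was dimmest in CLP in both genotypes, but by little against HSC in wild type (levels below). Between 52.4% and 57.7% of spots were well above background. The arrays labelled wild type lay in row 1 of the slide and those labelled Satb1-null in row 2, and Xist was well above background on all 3 null-labelled arrays and on no wild type array. The Y-linked genes Ddx3y and Eif2s3y were lower on the null-labelled array in each population. Genotype, slide row and the sex of the embryos therefore cannot be told apart in any genotype difference given here. The Satb1 probe differed by -0.56, -0.04 and -0.06 on the log2 scale (null-labelled minus wild type) in HSC, LMPP and CLP. The position of that probe relative to the deleted part is unknown here, and it does not check the labels.

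The promoters of the members hold the letters of the response element far more often than most promoters. Sequences from RefSeq (assembly GRCm38.p6) were matched by symbol for 31 of the 40 members, as windows of 300 bases that run from 250 before to 50 after the annotated start. No entry was matched for Dhx58, Mx1, Mx2, Oas2, Parp14, Parp9, Rtp4, Shfl and Usp18. The letters GAAA, any 2 bases and GAAA again, searched on both strands with overlapping matches allowed, occurred in a window of 17 of the 31 members (54.8%) and of 1079 of 27025 genes (3.99%). TTCNNNGAA, the palindrome of the gamma-activated site, occurred for 9 of the 31 members (29.0%) and for 9.55% of all genes. A match is a description of the letters and not a bound site.

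Promoters are shown for members on which the genotype and population differences turn. Ifit3 and Ifit3b are near copies of each other and had the widest genotype differences in LMPP. Over all populations, Xaf1 and Ifi44 follow them among members with a promoter entry whose difference was measured on both arrays, and Ifit1, Oas3 and Gbp2 were added after their values were seen. Capitals mark matches to this repeat on either strand, and each sequence runs 5′ to 3′ on the strand of the gene. The windows are chr19:34583279-34583578, chr19:34607707-34608006 and chr19:34640639-34640938 on the plus strand, chr3:151749861-151750160 on the minus strand, chr11:72301379-72301678 on the plus strand, chr5:120777610-120777909 on the minus strand and chr3:142620413-142620712 on the plus strand, all in GRCm38.p6.
Ifit3: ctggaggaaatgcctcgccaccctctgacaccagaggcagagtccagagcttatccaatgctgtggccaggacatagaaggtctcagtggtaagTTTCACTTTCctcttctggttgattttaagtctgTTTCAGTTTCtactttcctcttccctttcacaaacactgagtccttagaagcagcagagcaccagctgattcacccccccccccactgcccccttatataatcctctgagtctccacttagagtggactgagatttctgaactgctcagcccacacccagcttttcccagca
Ifit3b: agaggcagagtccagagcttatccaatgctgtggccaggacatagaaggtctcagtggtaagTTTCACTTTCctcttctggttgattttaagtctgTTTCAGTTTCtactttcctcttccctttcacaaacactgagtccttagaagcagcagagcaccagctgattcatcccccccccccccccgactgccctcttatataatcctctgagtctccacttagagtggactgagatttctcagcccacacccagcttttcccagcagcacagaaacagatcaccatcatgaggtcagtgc
Ifit1: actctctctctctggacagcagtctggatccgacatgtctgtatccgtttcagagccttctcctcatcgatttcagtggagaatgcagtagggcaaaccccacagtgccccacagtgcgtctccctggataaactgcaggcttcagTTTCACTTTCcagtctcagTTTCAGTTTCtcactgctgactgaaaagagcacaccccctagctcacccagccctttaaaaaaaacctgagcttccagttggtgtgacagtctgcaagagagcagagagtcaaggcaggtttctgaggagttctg
Ifi44: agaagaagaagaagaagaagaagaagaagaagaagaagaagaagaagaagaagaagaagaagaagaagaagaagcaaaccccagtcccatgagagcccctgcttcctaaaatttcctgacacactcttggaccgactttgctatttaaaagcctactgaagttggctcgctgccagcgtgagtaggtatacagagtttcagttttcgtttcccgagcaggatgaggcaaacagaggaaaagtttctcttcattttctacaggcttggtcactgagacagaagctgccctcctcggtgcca
Xaf1: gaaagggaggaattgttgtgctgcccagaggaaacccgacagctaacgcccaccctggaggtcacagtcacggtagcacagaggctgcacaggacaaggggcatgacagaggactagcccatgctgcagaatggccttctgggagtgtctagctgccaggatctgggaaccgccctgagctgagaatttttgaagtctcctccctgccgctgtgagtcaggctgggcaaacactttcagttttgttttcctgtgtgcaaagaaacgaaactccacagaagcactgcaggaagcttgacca
Oas3: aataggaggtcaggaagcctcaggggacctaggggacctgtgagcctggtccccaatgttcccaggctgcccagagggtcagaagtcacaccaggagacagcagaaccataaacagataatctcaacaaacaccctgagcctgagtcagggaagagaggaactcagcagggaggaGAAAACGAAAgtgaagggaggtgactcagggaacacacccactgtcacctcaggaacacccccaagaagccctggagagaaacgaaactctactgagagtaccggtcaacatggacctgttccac
Gbp2: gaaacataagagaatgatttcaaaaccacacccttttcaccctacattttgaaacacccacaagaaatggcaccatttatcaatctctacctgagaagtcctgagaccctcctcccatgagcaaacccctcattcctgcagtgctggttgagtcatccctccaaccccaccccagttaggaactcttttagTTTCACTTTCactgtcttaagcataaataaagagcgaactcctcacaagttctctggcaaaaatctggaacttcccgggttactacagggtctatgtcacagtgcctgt

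The Ifit3 and Ifit3b windows were identical at 259 of 274 aligned positions (94.5%), with 169 bases in their longest shared run, and both carry the same pair of matches. The match nearest to the start lay 112 bases before it in Ifit3, 144 in Ifit3b, 75 in Ifit1, 65 in Oas3 and 49 in Gbp2. The Ifi44 and Xaf1 windows held no match.

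Levels are log2 intensities relative to the array's 75th percentile, so 0 is the brightness that 75% of spots do not exceed. A genotype difference is the null-labelled value minus the wild type value in the same population, and a member was counted where it reached 2-fold, a log2 difference of 1. A difference whose dimmer array was not well above background is a bound, written with "at least". The scanner's own error of a member's difference had a median of 0.21 and says nothing of the spread between embryos. Levels of different genes are not compared, since each probe has its own brightness. In sorted bulk samples, fewer cells that express a gene and less RNA per cell cannot be told apart.

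Interferon response genes most often had their highest level in wild type LMPP. Of the 34 members well above background on all arrays, 22 (64.7%) were highest on the wild type LMPP array, as were 2034 of 11020 such genes on the whole array. None was highest in wild type HSC, 4 in wild type CLP, and 3, 2 and 3 in null-labelled HSC, LMPP and CLP. With each member set against its own mean over the 6 arrays, the median was 0.65 in wild type LMPP and 0.16 in null-labelled LMPP. It was 0.07 and -0.05 in wild type and null-labelled HSC, and -0.20 and -0.39 in wild type and null-labelled CLP. The same median over all genes lay between -0.15 and 0.07 on the 6 arrays.

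**Figure D1:**
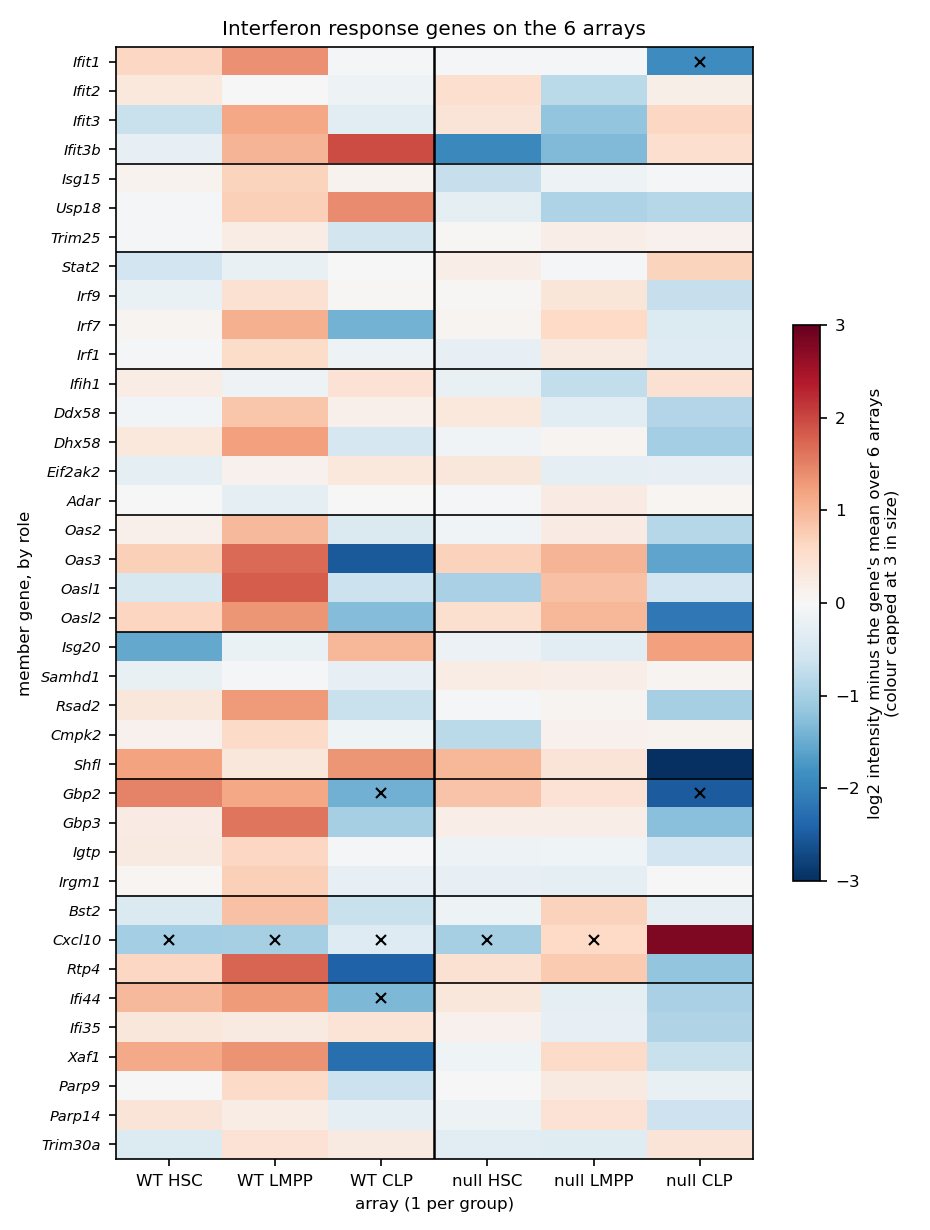
Each row is a member, grouped by role from the IFIT family at the top to other induced proteins at the bottom, and each column is 1 array. Colour is the log2 intensity minus the gene's mean over the 6 arrays, crosses mark values not well above background, and the wild type LMPP column is the reddest, with 22 of 34 fully detected members highest there.

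In LMPP, interferon response genes were lower on the null-labelled array across nearly the whole list. Of 37 members compared, 32 lay below 0, 9 were at least 2-fold lower and none was 2-fold higher, and the median was -0.73. Over all 13342 genes compared in LMPP, 54.9% lay below 0, 4.12% were at least 2-fold lower, 5.79% at least 2-fold higher, and the median was -0.04. The medians of all 9 role groups were below 0, from -0.11 for the nucleic acid effectors to -1.88 for the IFIT family, and each stayed below 0 under all 7 alternatives of background correction, scaling, probe choice, detection and source of values. Over all 48 probes compared rather than 1 a gene, 40 lay below 0, 11 were 2-fold lower and none was higher. With normexp background correction, under which 0.436% of all genes were 2-fold lower, 5 of the 9 remained past 2-fold: Ifit3, Ifit3b, Ddx58, Rsad2 and Gbp3.

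In HSC, 2 of 37 members were at least 2-fold lower and 2 at least 2-fold higher, where 5.85% and 8.42% of all genes were, and 25 members lay below 0 against 39.9% of all genes. The HSC median was -0.18, against 0.13 over all genes. Median centring moved the HSC median of all genes by more than 0.1, and relative to it the member median was -0.31, with a range from -0.35 to -0.20 over the alternatives. In CLP, 6 members were at least 2-fold lower and 4 at least 2-fold higher, where 8.32% and 12.0% of all genes were, and the median of 0.05 equalled that of all genes. With 1 array a group, the difference between populations in the genotype effect was not tested.

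**Figure D2:**
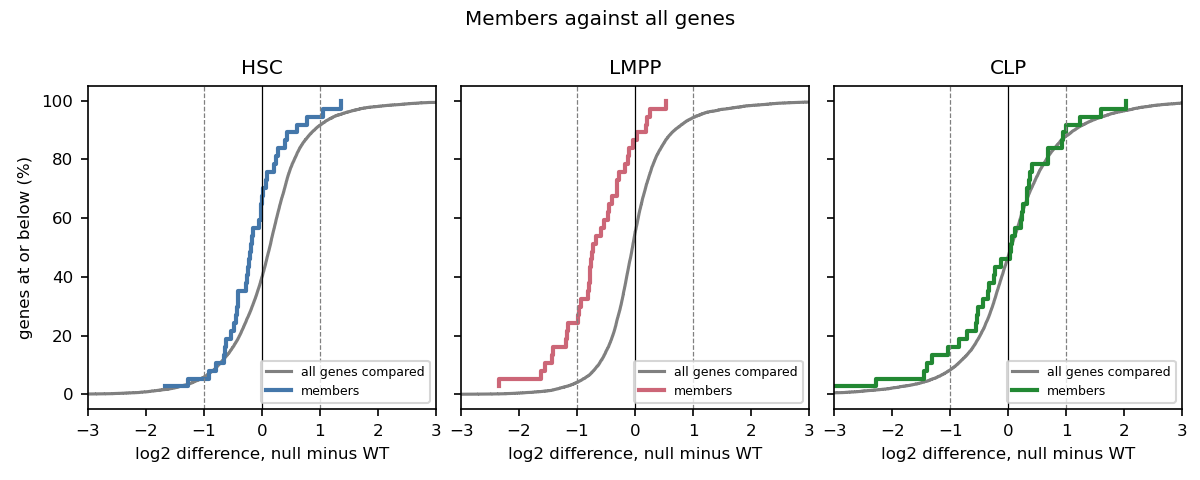
Cumulative share of genes (vertical axis, %) at or below a given log2 difference, null-labelled minus wild type (horizontal axis, shown from -3 to 3), for the members (coloured) and all genes compared (grey) in HSC, LMPP and CLP. The member curve lies to the left of the grey curve in LMPP, where the medians were -0.73 and -0.04, and crosses it in CLP, where both medians were 0.05.

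The 3 genotype comparisons share no arrays. Of 36 members compared in all 3, 21 (58.3%) were past 2-fold in none, 9 (25%) in 1, 5 (13.9%) in 2 and Ifit3b in all 3 (2.78%). Over 12333 genes compared in all 3, these shares were 72.0%, 20.7%, 6.14% and 1.16%. Of the 36 members, 12 (33.3%) were lower each time and 2 (5.56%) higher each time, against 12.9% and 16.0% of these genes. By the brightest probe of each gene, the 12 were Dhx58, Gbp3, Ifi35, Ifit1, Ifit3b, Igtp, Irf1, Isg15, Oas2, Oasl2, Rsad2 and Usp18. The dimmer probes of Irf1 (0.51 in HSC) and Isg15 (0.24 in CLP) were higher in 1 population. In a limma model with genotype and population as terms, fitted to all 6 arrays, 0 of 37 members passed an adjusted p of 0.05 for genotype, with a smallest adjusted p of 0.836, and 1 of 13016 genes did (0.00768% higher, 0% lower). At an unadjusted limma p under 0.05 there were 5 members, all lower, against 2.60% of genes lower and 2.99% higher. These were Ifit1, Ifit3b, Usp18, Dhx58 and Igtp, with fitted log2 differences of -1.16 ± 0.26, -1.82 ± 0.26, -1.38 ± 0.44, -0.70 ± 0.25 and -0.57 ± 0.21 (SE).

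**Figure D3:**
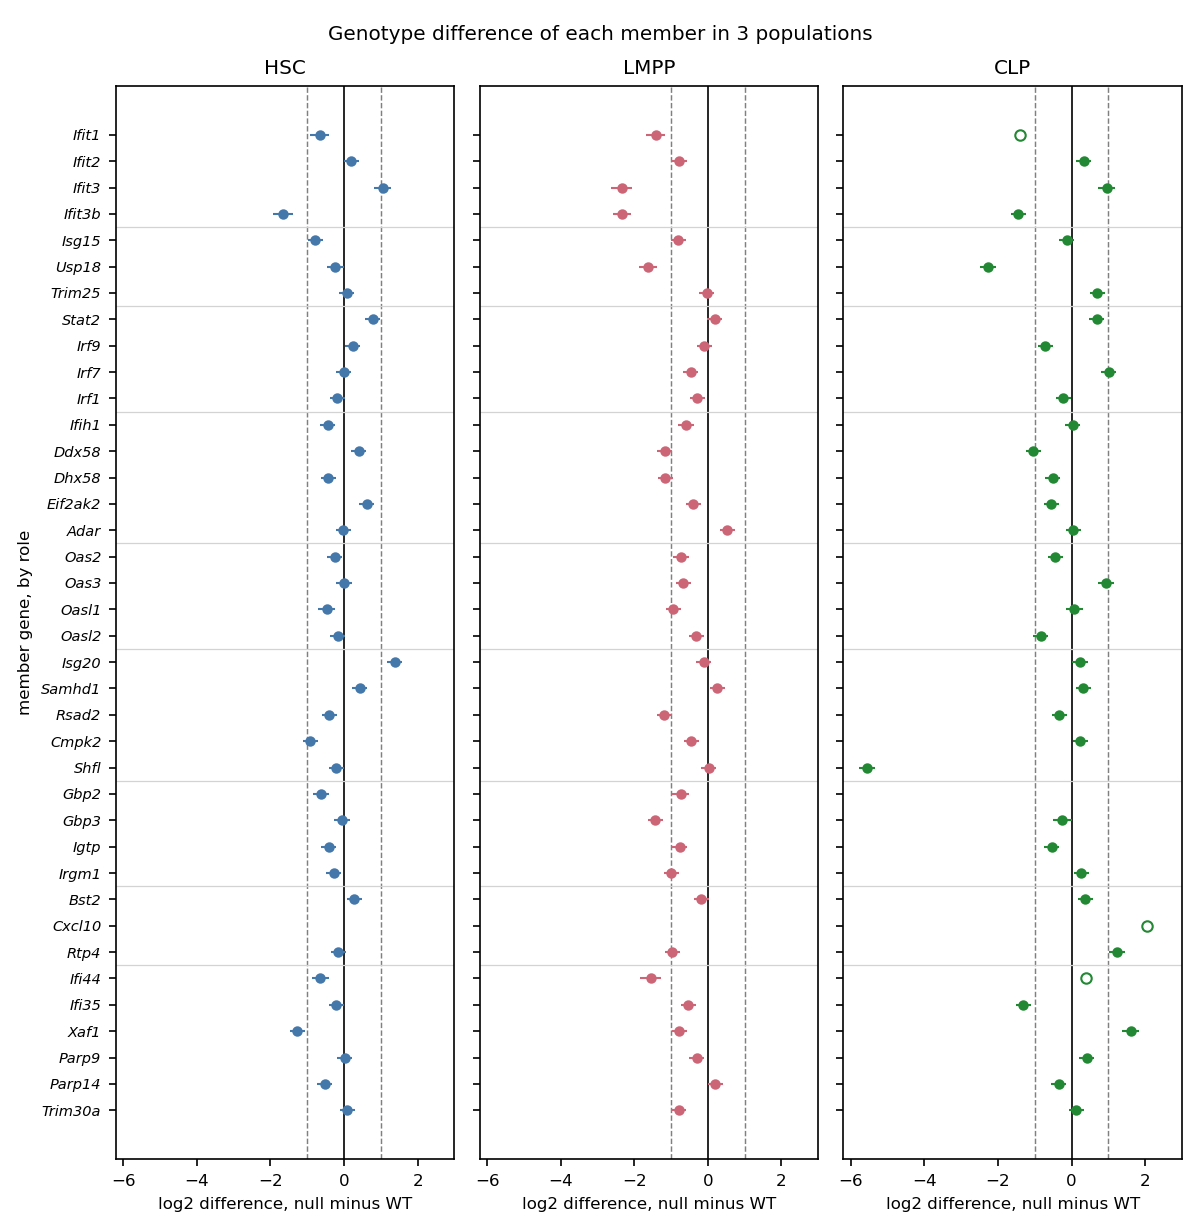
Log2 difference, null-labelled minus wild type, of each member (rows, by role) in HSC, LMPP and CLP, 1 array against 1. Filled points carry the scanner's error, open points are bounds, and dashed lines mark 2-fold. In LMPP 32 of 37 points lie left of 0 and 9 left of the 2-fold line, and Shfl in CLP is the point farthest from 0.

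The IFIT proteins, which bind viral RNA that lacks the marks of host messages, had the lowest group median in LMPP. It was -1.88, and -0.85 with normexp background correction. Ifit3 read -2.65, -0.84 and -2.32 in HSC, LMPP and CLP of wild type mice and -1.60, -3.18 and -1.37 in the null-labelled populations. It was 5.06-fold lower in null-labelled LMPP and 2.07-fold higher in null-labelled HSC, so the wild type peak in LMPP was a trough in the null-labelled samples. Ifit3b read -1.48, -0.19 and 0.74 in wild type and -3.15, -2.54 and -0.71 in null-labelled HSC, LMPP and CLP. All 3 differences of Ifit3b were past 2-fold lower, at -1.67, -2.34 and -1.45. They stayed so under 5, 7 and 6 of the 7 alternatives of processing, in that order. The difference of Ifit3 in HSC was past 2-fold under 4 of the 7. In LMPP it was under all 7, from -2.35 to -1.07. A dimmer probe of Ifit3b gave -0.25 in HSC and a bound of at least 1.77 lower in LMPP, and was not well above background on either CLP array. Because the 2 genes are near copies, signal of one on the probe of the other was not tested, and the assignment of signal between them is uncertain.

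Ifit1 was lower on the null-labelled array in every population. Its wild type levels were -2.10, -1.35 and -2.78, and its null-labelled levels -2.76, -2.77 and -4.63, the last not well above background. The differences were -0.66 in HSC, -1.42 in LMPP and at least 1.40 lower in CLP, a fold of at least 2.65. Ifit2 was not past 2-fold in any population, at 0.20, -0.78 and 0.33.

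Isg15 is attached to proteins as ubiquitin is, and Usp18 removes it and also dampens the type I receptor. Usp18 read -1.44, -0.66 and 0.05 in HSC, LMPP and CLP of wild type mice, highest in CLP. In the null-labelled samples it read -1.67, -2.29 and -2.22, and every one of these lay below every wild type value. It was 3.09-fold lower in LMPP and 4.84-fold lower in CLP. Isg15 itself was lower by less than 2-fold, at -0.79, -0.81 and -0.13, while its dimmer probe gave -0.43, -1.29 and 0.24. Trim25, a ubiquitin ligase that activates the RNA sensor encoded by Ddx58, differed by 0.07, -0.03 and 0.69.

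The transcription factors of the response had no member past 2-fold in LMPP. Stat2 read 0.44, 0.80 and 1.0 in wild type and 1.22, 0.99 and 1.69 in null-labelled HSC, LMPP and CLP. Irf9, a DNA-binding partner of Stat2, read 2.69, 3.36 and 2.92 against 2.94, 3.26 and 2.21. Irf1, which interferon gamma induces, read 3.47, 4.09 and 3.37 against 3.29, 3.81 and 3.15, with differences between -0.28 and -0.18. Its dimmer probe gave 0.51 in HSC, -0.02 in LMPP and at least 0.36 lower in CLP, and was brightest in HSC in both genotypes, where the brighter probe was brightest in LMPP. Irf7 and Irf9 were highest in LMPP in both genotypes. Irf7, the main amplifier of type I interferon production, read 0.30, 1.27 and -1.20 against 0.29, 0.80 and -0.19. Its CLP difference of 1.0 stood at the threshold and was past it under 2 of the 7 alternatives.

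The RNA sensors Ddx58 and Dhx58 were both lower in null-labelled LMPP. Ddx58, which encodes RIG-I, read 1.03, 1.94 and 1.25 in wild type and 1.43, 0.76 and 0.22 in null-labelled HSC, LMPP and CLP. Its differences were 0.40, -1.18 and -1.04, and the dimmer probe gave -0.19, -0.64 and, in CLP, at least 1.98 higher. The mean over both probes was 0.47 in CLP, so the direction of Ddx58 there turns with the probe. Dhx58, which encodes the RIG-I relative LGP2, read 0.26, 1.17 and -0.57 against -0.17, 0.02 and -1.08 and was lower in all 3 populations. Ifih1, the sensor MDA5, differed by -0.44, -0.59 and 0.03, and its dimmer probe by 0.40, 0.10 and at least 2.12. Eif2ak2, the kinase PKR, and Adar, which edits double-stranded RNA, stayed within 2-fold, from -0.56 to 0.61. The dimmer probe of Adar gave -0.69, -0.32 and 0.12, against 0.53 on the brighter probe in LMPP, so its direction there turns with the probe.

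The oligoadenylate synthetases, which make the activator of the nuclease RNase L, were lower in null-labelled LMPP by less than 2-fold. Their LMPP differences were -0.73 for Oas2, -0.67 for Oas3, -0.93 for Oasl1 and -0.32 for Oasl2. None of the 4 was past 2-fold in any population.

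Among the enzymes that act on nucleic acids and nucleotides, each population had its own outlying member. Rsad2, or viperin, makes a nucleotide that ends viral RNA chains, and read 1.61, 2.55 and 0.61 in wild type and 1.21, 1.36 and 0.28 in null-labelled HSC, LMPP and CLP. It was 2.28-fold lower in LMPP and within 2-fold elsewhere. Isg20, an exonuclease for RNA, read 0.56, 1.89 and 3.10 against 1.93, 1.78 and 3.33. It was 2.59-fold higher in null-labelled HSC, where its other probe gave 0.81, and within 2-fold in the later populations. Shfl, an inhibitor of viral frameshifting, read 3.33, 2.48 and 3.46 against 3.12, 2.51 and -2.11. Only the null-labelled CLP array was low, 47.4-fold below wild type CLP, on the single probe of the gene. Cmpk2 and Samhd1 stayed within 2-fold on all their probes, from -0.92 to 0.49.

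**Figure D4:**
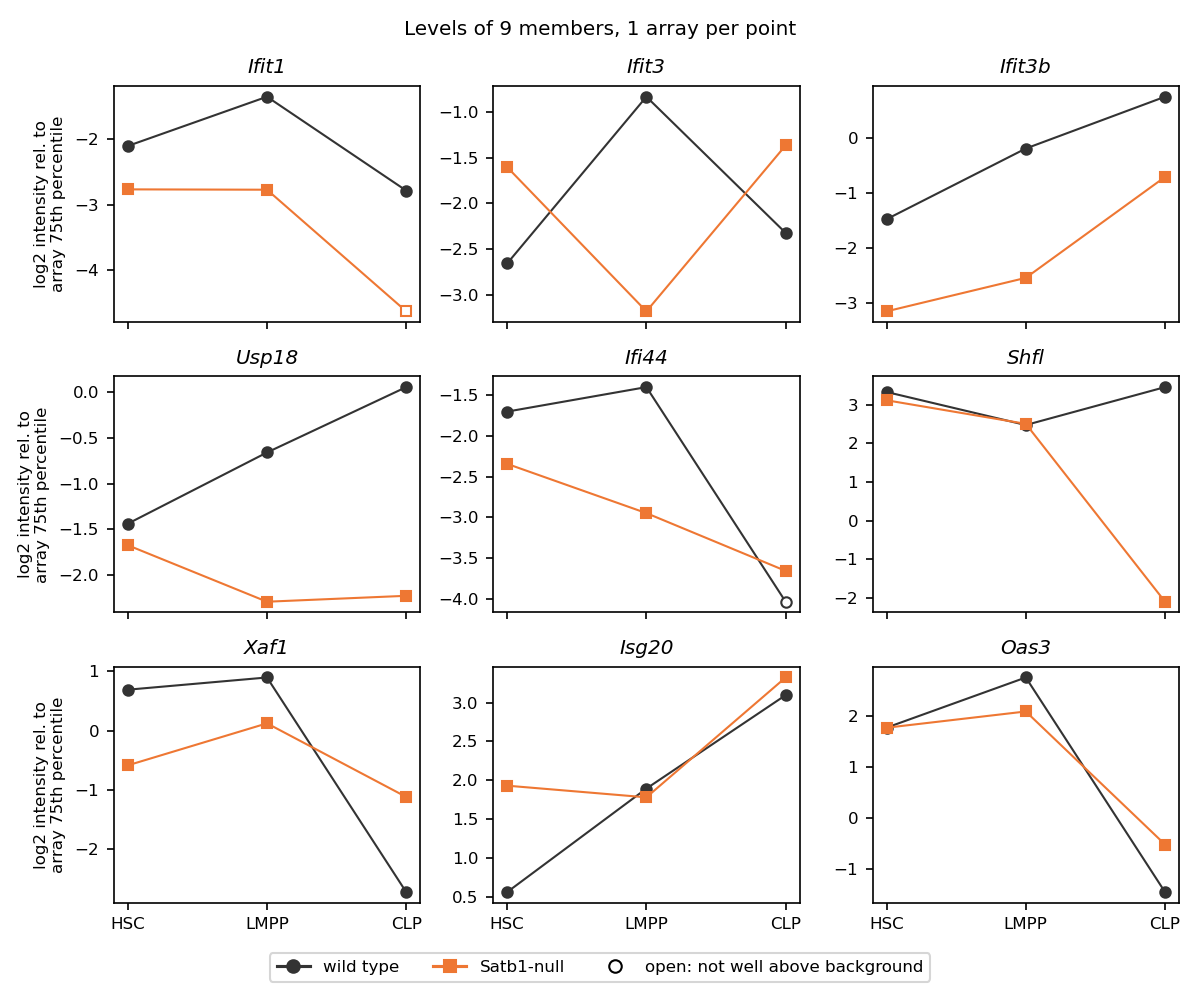
Log2 intensity relative to the array's 75th percentile (vertical axis, its own range in each panel) of 9 members in HSC, LMPP and CLP, 1 array per point, with wild type as circles, Satb1-null as squares and open symbols where a value was not well above background. Ifit1, Ifit3b and Usp18 lie lower in the null-labelled samples at every population, Ifit3 crosses between them, and Shfl parts in CLP.

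The interferon-induced GTPases, which attack the vacuoles of intracellular microbes, were lower in null-labelled LMPP in 4 of 4 measured members by their brightest probes. Gbp3 read -0.95, 0.41 and -2.21 in wild type and -1.0, -1.01 and -2.45 in null-labelled HSC, LMPP and CLP. It was 2.68-fold lower in LMPP and within 0.25 of wild type in HSC and CLP. The LMPP differences of Gbp2, Igtp and Irgm1 were -0.74, -0.76 and -0.99. The dimmer probe of Irgm1, well above background on every array, gave -0.14 in LMPP and 0.22 and 0.14 in HSC and CLP. Igtp, the only member with 10 repeated spots, was lower in all 3 populations, at -0.42, -0.76 and -0.54. Gbp2 was not well above background on either CLP array.

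Of the surface and secreted members, Rtp4 and Cxcl10 were higher in null-labelled CLP. Rtp4, a chaperone of receptors that is strongly induced by interferon, read 1.99, 3.12 and -1.05 in wild type and 1.83, 2.16 and 0.18 in null-labelled HSC, LMPP and CLP. It was 2.35-fold higher in CLP and 1.95-fold lower in LMPP. Cxcl10, a chemokine that draws T cells, was well above background on the null-labelled CLP array alone, at -2.09, a fold of at least 4.10 over wild type CLP. Bst2, or tetherin, which holds budding virus at the cell surface, was within 2-fold at 0.27, -0.18 and 0.36.

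Of the other induced proteins, Ifi44, Xaf1 and Ifi35 were past 2-fold in at least 1 population. Ifi44 read -1.70, -1.40 and -4.04 in wild type and -2.34, -2.95 and -3.66 in null-labelled HSC, LMPP and CLP, the wild type CLP value not well above background. Its LMPP difference was -1.55. Xaf1, which promotes cell death, read 0.69, 0.90 and -2.72 against -0.58, 0.12 and -1.12. It was 2.42-fold lower in null-labelled HSC and 3.04-fold higher in null-labelled CLP, the latter past 2-fold under 5 of the 7 alternatives. The dimmer Xaf1 probe gave -1.51 in HSC and 0.80 in LMPP and was not well above background in CLP. Ifi35 read 0.07, 0.01 and 0.14 against -0.14, -0.52 and -1.17, with a difference past 2-fold in CLP only. Parp9, Parp14 and Trim30a, which modify or regulate proteins of the response, stayed within 2-fold, from -0.79 to 0.41.

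Markers of other cells also differed between the LMPP arrays, and between the HSC arrays. Summed linear intensities, in units of the array's 75th percentile, were 33.1 and 106 for 9 erythroid markers in wild type and null-labelled LMPP, 8.05 and 20.9 for 8 megakaryocyte markers, and 278 and 358 for 9 granulocyte and monocyte markers. Macrophage markers summed to 24.1 and 22.2 (4 and 7 of 12 well above background) and dendritic cell markers to 14.6 and 17.5 (4 and 5 of 9). B lineage markers summed to 1.82 and 3.76 (4 and 7 of 9 well above background), with 5 of 7 compared at least 2-fold higher in null-labelled LMPP. Of these 7 differences 3 were bounds, and 5.79% of all genes were 2-fold higher there. Early lymphoid markers summed to 11.5 and 8.43, with 6 of 7 below 0, against 54.9% of all genes, and none past 2-fold. In wild type and null-labelled HSC, erythroid markers summed to 32.9 and 63.8, and granulocyte and monocyte markers to 329 and 432. There B lineage markers summed to 1.24 and 4.76 and early lymphoid markers to 2.81 and 4.49. Macrophage markers summed to 25.2 and 24.1 and dendritic cell markers to 12.7 and 10.9 in HSC. The part of these cells in the interferon result was not tested.

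Between populations, the list was lower in CLP than in LMPP, and a small set led by the oligoadenylate synthetases passed the test. These comparisons share arrays with each other and with the genotype comparisons. In wild type, 16 of 37 members were at least 2-fold lower in CLP than in LMPP and 1 was higher, with a median of -0.72. The background was 18.0% lower and 14.5% higher, with a median of -0.07. In null-labelled cells, 15 of 38 were lower and 5 higher, with a median of -0.60, against 14.5% and 15.2% and a median of 0.02.

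The limma fit over both genotypes called 5 of 37 members lower in CLP than in LMPP and none higher, where 3.95% and 4.76% of 13016 genes were called. Oas3 read 1.78, 2.77 and -1.45 in wild type and 1.78, 2.10 and -0.52 in null-labelled HSC, LMPP and CLP, and fell by 3.42 on the log2 scale with an SE of 0.44 and an adjusted p of 0.0202. Oasl2 read 1.06, 1.73 and -0.89 against 0.89, 1.41 and -1.74, and its limma difference was -2.89 ± 0.29 (SE, adjusted p = 0.0151). In both, each CLP array was below every HSC and LMPP array. Oasl1, a relative without synthetase activity, read -1.93, 0.36 and -2.09 against -2.41, -0.57 and -2.02, a peak in LMPP rather than a loss in CLP (limma difference -1.95 ± 0.34, adjusted p = 0.0351). Gbp2 read -0.97, -1.29 and -3.91 against -1.59, -2.03 and -4.96 with both CLP values not well above background. It was at least 6.16-fold lower in CLP than in LMPP in wild type and at least 4.47-fold lower in null-labelled cells (limma adjusted p = 0.0166). The limma difference of Rtp4, whose levels are given above, was -3.07 ± 0.56 (SE, adjusted p = 0.0406). Oas2 had -1.26 ± 0.27 and did not pass (limma adjusted p = 0.0571).

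Against HSC, limma called 3 members lower in CLP, where 3.59% of genes were called lower. Oas3 and Oasl2 had -2.76 and -2.29 with adjusted limma p of 0.0335 and 0.0218. Gbp2 was at least 7.67-fold lower in wild type and at least 6.04-fold lower in null-labelled cells, with an adjusted limma p of 0.0152. Ifit3b was called higher, at 2.33 with an adjusted limma p of 0.0261, where 5.10% of genes were called higher. With the mean over both Ifit3b probes, it was 0.76 with an adjusted limma p of 0.359. All of these population calls rest on few arrays, and the fit's error holds no spread between replicates of a group. Without wild type HSC, wild type LMPP, null-labelled HSC or null-labelled LMPP, the fit called 0 members and 0 of all genes in both comparisons, while 12 to 16 of 37 members (16.9% to 23.9% of all genes) had an unadjusted limma p under 0.05 for CLP against LMPP and 8 to 11 (15.8% to 24.1%) for CLP against HSC. Without the null-labelled CLP array it called more members in both comparisons, and also a larger share of all genes.

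**Figure D5:**
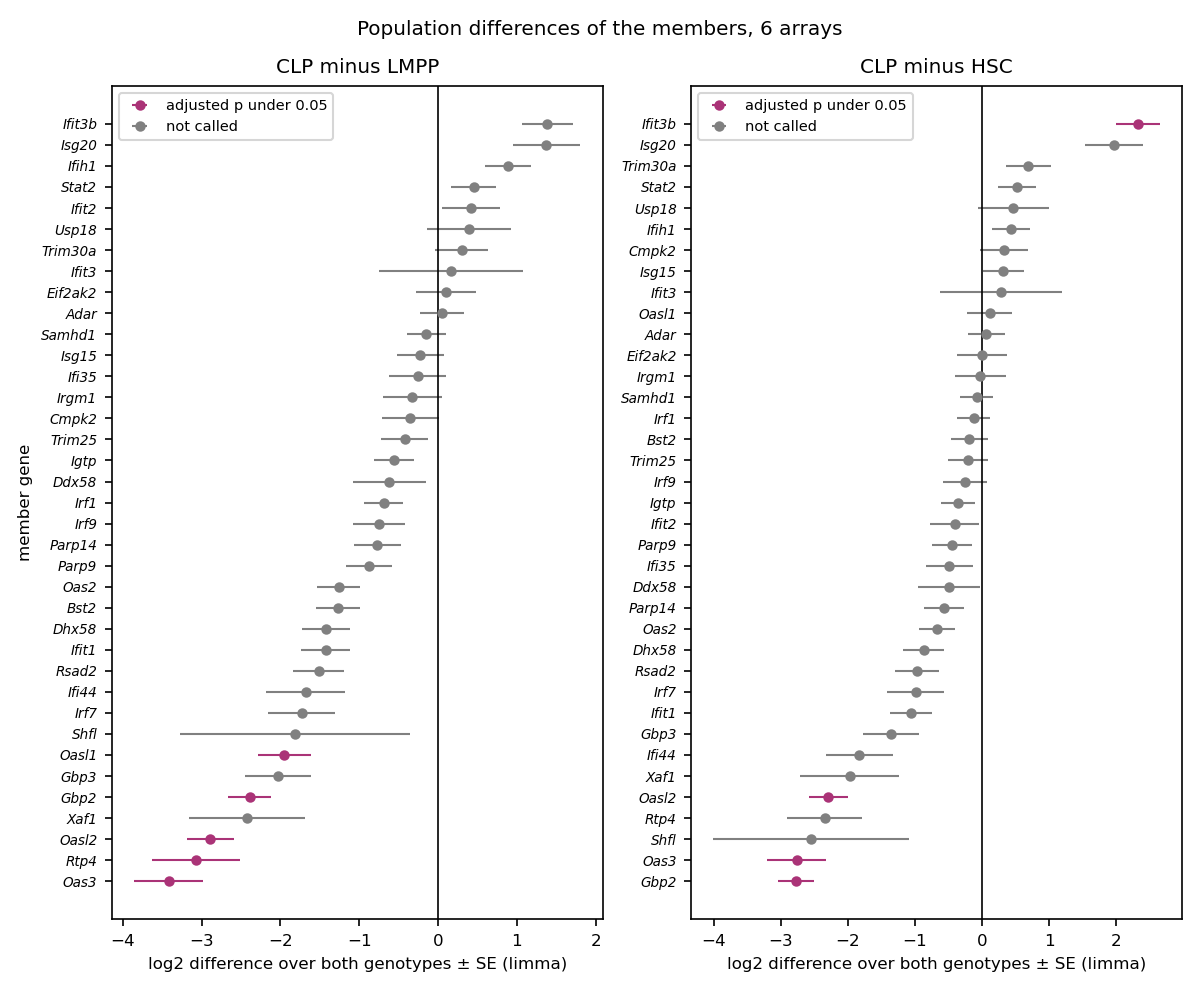
Fitted log2 differences of 37 members over both genotypes, CLP minus LMPP on the left and CLP minus HSC on the right, with bars of 1 SE from limma over 6 arrays. Purple points passed an adjusted p of 0.05: Oas3, Rtp4, Oasl2, Gbp2 and Oasl1 lower than LMPP, and Gbp2, Oas3 and Oasl2 lower and Ifit3b higher than HSC.

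LMPP against HSC gave no call over both genotypes. In wild type, 30 of 37 members were higher in LMPP, 7 at least 2-fold and none 2-fold lower, with a median of 0.66. Over all genes 7.45% were 2-fold higher and 6.70% lower, with a median of 0.20. In null-labelled cells 20 of 37 were higher, 1 at least 2-fold, and 2 were 2-fold lower, with a median of 0.15 against 0.03, where 7.28% and 8.23% of all genes were past 2-fold. Whether the 2 genotypes differ here was not tested, and both comparisons share arrays with the genotype differences. The limma fit called 0 members, as it called 0 of all genes, and 3 members had an unadjusted limma p under 0.05, all higher, against 4.78% of genes higher and 3.80% lower. These were Oasl1 at 2.07 ± 0.34, Bst2 at 1.08 ± 0.28 and Ifit3b at 0.94 ± 0.32 (SE), all higher in LMPP.

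The CLP arrays also carried more signal of erythroid and myeloid cells. Erythroid markers summed to 755 and 814 in wild type and null-labelled CLP, and granulocyte and monocyte markers to 1310 and 1144. The part of these cells in the population differences was not tested.

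Interferons themselves were mostly not detected. Of 15 ligand genes with a named probe, 10 never exceeded background clearly, among them Ifnb1 and Ifng. Ifna12 and Ifnl3 were well above background on all 6 arrays and differed by -0.30 to 0.29 between genotypes. Ifna4 was well above background in null-labelled HSC alone, at least 2.06 higher there. It was the 1 of 5 ligands compared in HSC that was 2-fold higher, where 8.42% of all genes were. In CLP 1 of 4 compared was at least 2-fold lower, where 8.32% of all genes were.

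Of 11 receptor and signalling genes, 1 was at least 2-fold higher in HSC (Ifnlr1, at least 1.03), where 8.42% of all genes were. In LMPP 1 was lower (Tyk2, -1.18), where 4.12% of all genes were. In CLP 1 was higher (Tyk2, at least 2.14), where 12.0% of all genes were. The subunits of the type I receptor, Ifnar1 and Ifnar2, lay between -0.27 and 0.28 in all 3 populations. Among 8 negative regulators, Socs1 and Socs3, which block the receptor kinases, were higher on the null-labelled arrays in HSC (1.33 and 1.34) and in LMPP (1.14 and 1.65). In CLP Socs3 was at least 1.13 higher, Socs1 at least 2.57 lower and Cish 1.13 lower. Over all genes 12.0% were 2-fold higher and 8.32% lower in CLP.

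Genes that sense nucleic acid and lead to interferon production had members past 2-fold in HSC and CLP. Of 14 compared in HSC, Ticam1 (1.34) and Mavs (1.23), adaptors of RNA sensing, were 2-fold higher, and the kinase Ikbke (-1.94) and the DNA sensor Aim2 (-1.12) 2-fold lower. Over all genes 8.42% were 2-fold higher and 5.85% lower in HSC. In LMPP 0 of 15 passed 2-fold, where 5.79% of all genes were higher and 4.12% lower. In CLP, of 15 compared, Aim2 was higher by 3.57, and Tlr7 (-1.61) and Ikbke (-1.05) were lower. There 12.0% of all genes were 2-fold higher and 8.32% lower. The difference between populations was not tested.

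A wider list of further interferon-induced genes leaned the same way as the members in LMPP, by a smaller amount. Of 64 compared in LMPP, 51 lay below 0 with a median of -0.31, against 54.9% of all genes and a median of -0.04. At least 2-fold lower were 3 and higher 1, where 4.12% and 5.79% of all genes were. The 3 were Gbp5 (at least 2.64 lower), Tgtp1 (at least 1.43 lower) and Phf11d (-1.42), and the 1 was Znfx1 (1.21). In HSC 11 of 65 were 2-fold lower and 1 higher, where 5.85% and 8.42% of all genes were. Phf11a (-2.36), Gbp6 (at least 2.30 lower), Gbp5 (-1.89) and Phf11b (-1.73) were farthest. The HSC median of the 65 was -0.00449, which is -0.14 relative to the median of all genes. In CLP 5 of 64 were lower and 5 higher, where 8.32% and 12.0% of all genes were. The farthest there were Ccl5 (-2.36) and Oas1c (2.13). Ly6a, the gene of the sort marker Sca-1 and an interferon target, read 0.29, 1.12 and 0.21 in wild type and 0.35, 0.14 and -0.50 in null-labelled HSC, LMPP and CLP. The limma fit called 10 of 64 genes of this list lower and 3 higher in CLP than in LMPP, against 3.95% and 4.76% of all genes.

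Class I presentation and the immunoproteasome, which interferon also raises, had no member past 2-fold in LMPP. Over 12 genes the LMPP median was -0.15, and 5.79% of all genes were 2-fold higher and 4.12% lower there. Tap1 was at least 1.55 lower in null-labelled HSC, where 5.85% of all genes were 2-fold lower. In CLP Tap2 (2.33) and Psmb8 (1.18) were higher and Nlrc5 (-1.04) lower, where 12.0% and 8.32% of all genes were.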

How the data were processed

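RNA of 6 sorted samples was measured on single-colour Agilent arrays. Per the labels' protocols, 6.1 ng of total RNA was amplified to Cy3-labelled cDNA. The deposited intensity values are linear scanner signals made with Agilent Feature Extraction 10.10.1.1 per the file headers (10.10 per the submitters' processing notes). The signal that software calls processed was used; control spots (3671 an array) and outlier spots (154 to 181) were left out. Log2 values were centred on each array's 75th percentile and spots of a probe averaged. Probes were named through RefSeq accessions (assembly GRCm38.p6), which left 28446 of 55681 unnamed, and the brightest probe stood for a gene. Values not well above background were replaced in bounds and in the fit by the dimmest detected signal of the array (-4.19 to -3.99) where lower. Genes detected on 3 or more arrays were fitted with limma 3.58.1 in R 4.3.3 (lmFit, eBayes, Benjamini-Hochberg), with genotype and population as additive terms, and checked on simulated data. No group had a replicate, so the fit's error is how far these 6 arrays depart from additive genotype and population terms. That error, and the SE and p values that use it, do not measure the spread between samples of a group. Normexp (offset 50) used median spot signals, as mean signals were not in the files used.

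The members and lists were chosen with earlier results of these data known. Named with all values were members past 2-fold in a genotype comparison or called by the fit, and Stat2, Irf9, Irf7 and Irf1; of other lists, up to 4 genes past 2-fold a population, largest first. The number of arrays limits the precision.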

Additional observations from a re-analysis of the deposited data

Results flagged for a closer look

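Ifit3 was past 2-fold in opposite directions in 2 populations, higher by 1.05 on the null-labelled HSC array and lower, at -2.34, on the null-labelled LMPP array. Xaf1 did so between HSC, at -1.27, and CLP, at 1.60. Each value is 1 array against 1, and the difference between the populations was not tested. With normexp background correction the HSC difference of Ifit3 was 0.47, and with the mean over probes the CLP difference of Xaf1 was 0.34. The HSC difference of Ifit3 was past 2-fold under 4 of the 7 alternatives, and the CLP difference of Xaf1 under 5. The LMPP difference of Ifit3 and the HSC difference of Xaf1 were past 2-fold under all 7. Both genes kept their directions under all 7 alternatives of background correction, scaling, detection, probe choice and source of values.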

How the results depend on the processing

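No analysis paired by replicate number was possible because each group had 1 array and the groups share only 1 replicate number. The additive fit compares genotypes within populations through its population term, not through the numbers. No member passed the adjusted threshold for genotype, or for LMPP against HSC, under any of the alternatives run. The count of members called between CLP and LMPP moved from 5 (8.70% of all genes called) to 10 (11.3%) among genes well above background on all 6 arrays, 14 (15.6%) with normexp, 11 (8.47%) with the 75th percentile over detected probes, 3 (7.31%) with quantile normalization and 1 (0.983%) with no detection filter. Between CLP and HSC it moved from 4 (8.69%) to 1 (1.06%) with no detection filter. Leaving out 1 array in turn moved the count against HSC each time, and the count against LMPP for every array but wild type CLP. Among these fits the counts were lowest and highest where the share of all genes called was lowest and highest. Normexp changed the members 2-fold lower and higher in HSC to 1 and 1, those lower in LMPP from 9 to 5, the LMPP median to -0.45 (-0.42 relative to all genes) and those higher in CLP from 4 to 0. It cut these counts over all genes too. In HSC, 140 of 13820 genes were lower and 277 higher with normexp, against 815 and 1174 of 13940 without it. In LMPP 0.436% were lower, against 4.12%, and in CLP 4.05% were higher, against 12.0%. In HSC, the mean over probes left 1 member lower (5.69% of all genes). The 75th percentile over detected probes and the authors' matrix values each left 1 higher (6.61% and 7.05% of all genes). No detection filter gave 1 member higher in LMPP, where 6.96% of all genes were. At a 1.5-fold threshold there were 7 lower (13.8% of all genes) and 4 higher (19.0%) in HSC, 21 lower in LMPP (11.5%) and 8 higher in CLP (22.5%). At 3-fold there were 1 lower (1.92%) and 0 higher (3.30%) in HSC, 3 lower in LMPP (1.05%), and 2 lower (3.55%) and 2 higher (5.66%) in CLP. Of the members past 2-fold, Ddx58 reversed in CLP, to 0.47 with the mean over probes. With median centring the member median was 0.00061 in HSC and -0.01 in CLP, on the other side of 0 from the values in the report. The RNA sensor median in CLP went from -0.52 to 0.08 with the mean over probes. The share of 2-fold differences that were higher in HSC over all genes was 59.0%, and ranged from 45.9% with the 75th percentile over detected probes to 73.5% with median centring. The causes were not tested, except that leaving out an array leaves fewer samples. Values not well above background give bounds only.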
